A study of Rattus norvegicus with 23 samples.

Results

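Aminoacyl-tRNA synthetases are the enzymes that join each amino acid to its transfer RNA (tRNA) and so supply both translation systems of a cell. 36 of these genes were chosen by symbol: symbols ending in 2 are nuclear genes of the mitochondrial enzymes, and the rest are the cytosolic enzymes. 34 of the 36 were analysed, 20 cytosolic and 14 mitochondrial, out of 10723 genes with values per library, and all 34 passed the filter on low values. Iars2 and Mars2 were not analysed here. In the cytosolic group, Gars and Kars each encode the mitochondrial form of their enzyme as well, from the same gene.

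The samples are myocardium of Sprague-Dawley rats, and every rat had a myocardial infarction (MI) from ligation of its left coronary artery. In the MI+TRD group a device called TRD, which the labels do not describe further, was implanted at a second operation, and the MI group had the infarction surgery alone. Polyadenylated RNA was sequenced in 6 MI+TRD and 6 MI libraries at 12 weeks and in 5 MI+TRD and 6 MI libraries at 6 weeks, 23 libraries in all. The age and sex of the rats, the region of the myocardium sampled and a sham operation for the second surgery are not in the labels. Neither group was free of infarction, so all comparisons are between infarcted hearts with and without the device. Values per library were used for 12 weeks, and the 6-week comparison is known here through the authors' deposited table.

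Cytosolic synthetases serve the bulk of protein synthesis, and several of them sit together in a multisynthetase complex held by scaffold proteins. Mitochondrial synthetases are made in the cytosol, imported, and charge the tRNAs of the mitochondrial genome, which encodes core subunits of the respiratory chain. The heart depends on that chain for most of its energy, and inherited defects of several mitochondrial synthetases, among them that of alanine, affect the human heart. Many cytosolic synthetase genes are targets of ATF4, the transcription factor that is made when the kinases of the eIF2 alpha subunit sense amino acid shortage or other stress.

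The promoter sequences below are shown because a motif was found in some cytosolic windows and in none of the mitochondrial ones. Windows from 250 bases before to 50 bases after the start of each gene were taken from RefSeq on the rat build GRCr8. By symbol or synonym, 31 of the 34 genes were matched to 1 RefSeq gene with a window. Dars, Gars and Rars were not so matched and were left out. The motif TGATGNAA was searched on both strands (TTNCATCA on the other), the core shared by elements that bind dimers of ATF4 with a C/EBP factor. It stood in 7 of 17 cytosolic windows (41.2%), in 0 of 14 mitochondrial windows, and in 1.96% of the windows of 8744 genes of the table matched to a RefSeq gene. All 7 cytosolic genes, Aars, Cars, Iars, Mars, Nars, Tars and Yars, had the form TGATGCAA or its reverse complement TTGCATCA, which 0.56% of those 8744 windows held. A match is a description of the letters only. The matches that lie before the gene start are given here 5′ to 3′ on the gene's strand, with the motif in capitals.
Aars, chr19:55908350-55908397, plus strand: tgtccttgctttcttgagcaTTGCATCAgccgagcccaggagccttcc
Iars, chr17:15193649-15193696, minus strand: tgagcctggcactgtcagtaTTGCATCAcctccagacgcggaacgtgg
Mars, chr7:65023743-65023790, minus strand: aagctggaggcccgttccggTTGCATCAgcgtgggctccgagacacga
Nars, chr18:60275769-60275816, minus strand: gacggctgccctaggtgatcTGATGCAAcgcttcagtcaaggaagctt
Tars, chr2:62114802-62114849, minus strand: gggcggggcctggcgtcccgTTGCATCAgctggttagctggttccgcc
Counted from the gene start, the motif began at -112 in Aars, -24 in Iars, -17 in Mars, -14 in Nars and -27 in Tars. In Cars and Yars it began 17 and 38 bases after the start, and Aars held another match, of the form TTTCATCA, 9 bases after its start.

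Depth and composition of the 12-week libraries bear on what follows. The deposited normalized counts summed to 369333 to 398879 in MI+TRD libraries and to 388572 to 540053 in MI libraries, and recovered reads numbered 7197118 to 10304156 per library, of which the 34 genes took 0.161% to 0.209%. With the deposited scaling the median gene had a log2 fold change of -0.14 (MI+TRD over MI), so fold changes are also given relative to that median. Cardiomyocyte markers (7 measured of 8 listed) were present in every library, with summed levels of 19300 to 33910 in MI+TRD and 23780 to 40500 in MI, and 2 of the 7 were lower at unadjusted p (limma), beside 19.1% of all genes. Markers of other cells differed widely between libraries: the macrophage and leukocyte sum (8 genes) was 33.62 to 422.4 in MI+TRD and 43.21 to 101 in MI, the fibroblast sum (8 genes) 741.8 to 4459 in MI+TRD and 833.4 to 1193 in MI, the endothelial sum (6 genes) 330.7 to 746.7 in MI+TRD and 462.7 to 681.7 in MI, the erythroid sum (4 of 4) 174.6 to 690.6 in MI+TRD and 70.11 to 328.8 in MI, and the atrial sum (4 of 5) 45.96 to 3257 in MI+TRD and 147.5 to 11800 in MI. Sln, an atrial marker, had 0 reads in at least 1 library. The mesothelial sum (4 genes tested) was 15.40 to 82.51 in MI+TRD and 9.257 to 23.95 in MI. Of the 4, 3 were higher at unadjusted p (Msln, Upk1b and Krt8), beside 2.79% of all genes. Msln and Upk1b had 0 reads in at least 1 library, as had Krt19, which failed the filter on low values and is not in the sum. Cell markers were read only as a description. Their part in the results on synthetases was not tested.

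At 12 weeks the mitochondrial synthetase mRNAs had lower group means in MI+TRD, while the cytosolic ones were spread on both sides of the median gene. All 14 mitochondrial genes had a negative fold change and all 14 were below the median of all genes, with a median of -0.26 (log2; -0.12 relative to all genes); 67.8% of all genes tested had a negative fold change. After division by column totals 9 of the 14 kept a negative fold change and 14 of 14 stayed below the all-gene median; over every other scaling or model the number below 0 was 12 to 14. The size rests in part on MI replicate 4: without it the median was -0.05 relative to all genes, with 13 of 14 genes below the all-gene median, and without it and MI+TRD replicate 5 the median was -0.02, with 11 of 14 below. Of the 20 cytosolic genes 13 had a negative and 7 a positive fold change, with a median of -0.09 (0.06 relative to all genes), and 7 lay below the all-gene median. That direction depends on the scaling: 7 of 20 were negative with median of ratios scaling and 3 of 20 with equal column totals.

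No synthetase passed the test after adjustment. Using limma on log2(normalized count + 0.229) with Benjamini-Hochberg adjustment over 10629 genes, 0 of 34 had an adjusted p under 0.05, as did 0% of all genes. On recovered reads, edgeR's quasi-likelihood test and DESeq2 also called 0 of the 34. Over all 10629 genes edgeR called 0 and DESeq2 called 18. At an unadjusted p under 0.05, 3 of 14 mitochondrial genes (Cars2, Aars2 and Lars2) and 2 of 20 cytosolic genes (Farsa and Hars) were lower in MI+TRD, beside 19.1% of all genes, and 0 were higher, beside 2.79%. On recovered reads edgeR had 2 of 14 mitochondrial genes and 0 of 20 cytosolic genes lower at unadjusted p, beside 6.99% of all genes, and 1 cytosolic gene, Nars, higher, beside 7.98%. As deposited, the shares are near the background and say nothing particular about the synthetases. With median of ratios scaling, which centres the genes, 8.25% of all genes were lower and 7.49% higher, against 19.1% and 2.79% as deposited. In bulk tissue, fewer cells of a type and less RNA per cell cannot be told apart.

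**Figure D1:**
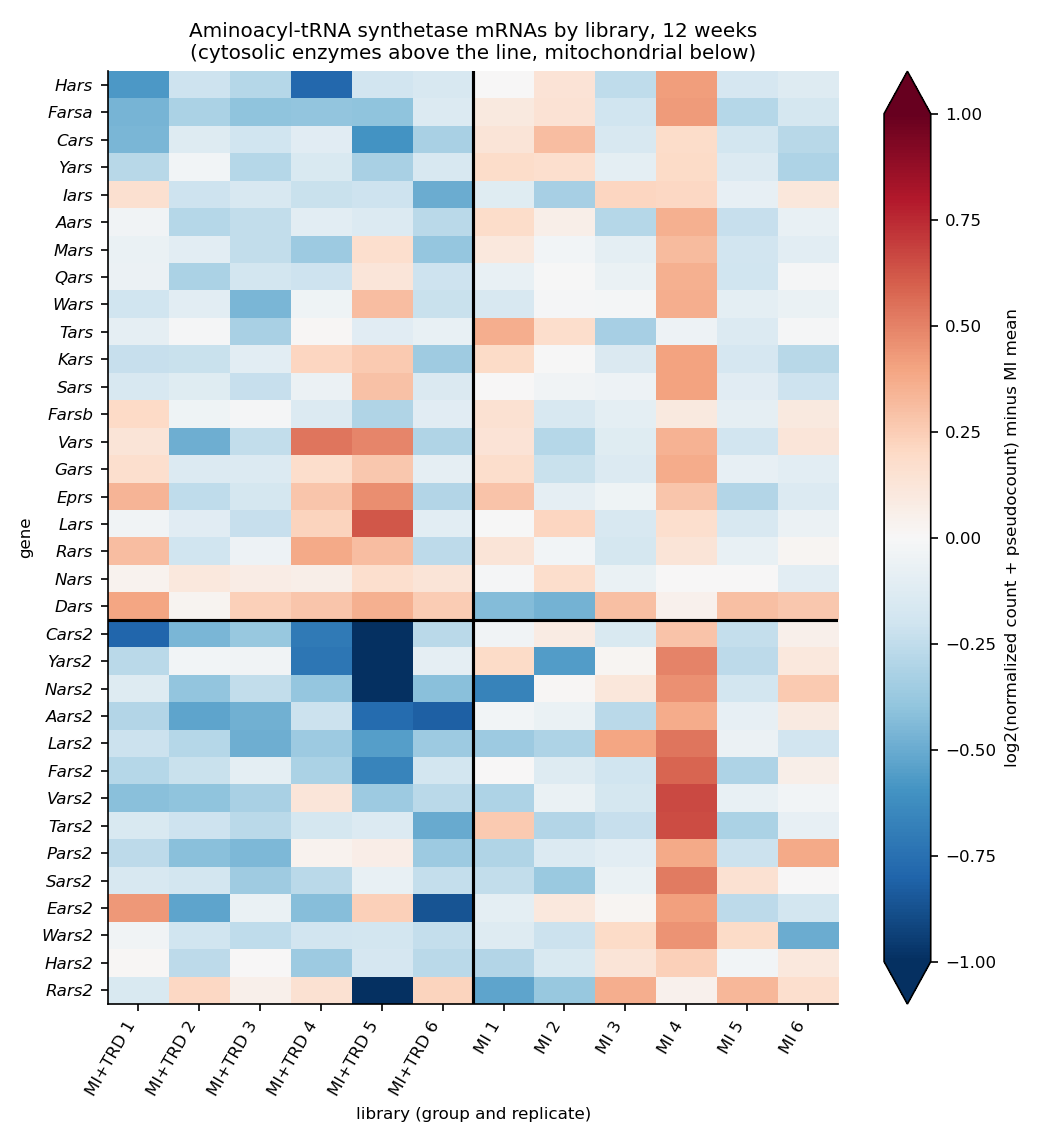
Each row is a synthetase gene and each column a 12-week library, MI+TRD on the left and MI on the right; colour gives log2(normalized count + pseudocount) minus the mean of the MI libraries. MI replicate 4 has the highest value of 21 of the 34 genes, and MI+TRD replicate 5 the lowest value of 9 genes, 6 of them mitochondrial.

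**Figure D2:**
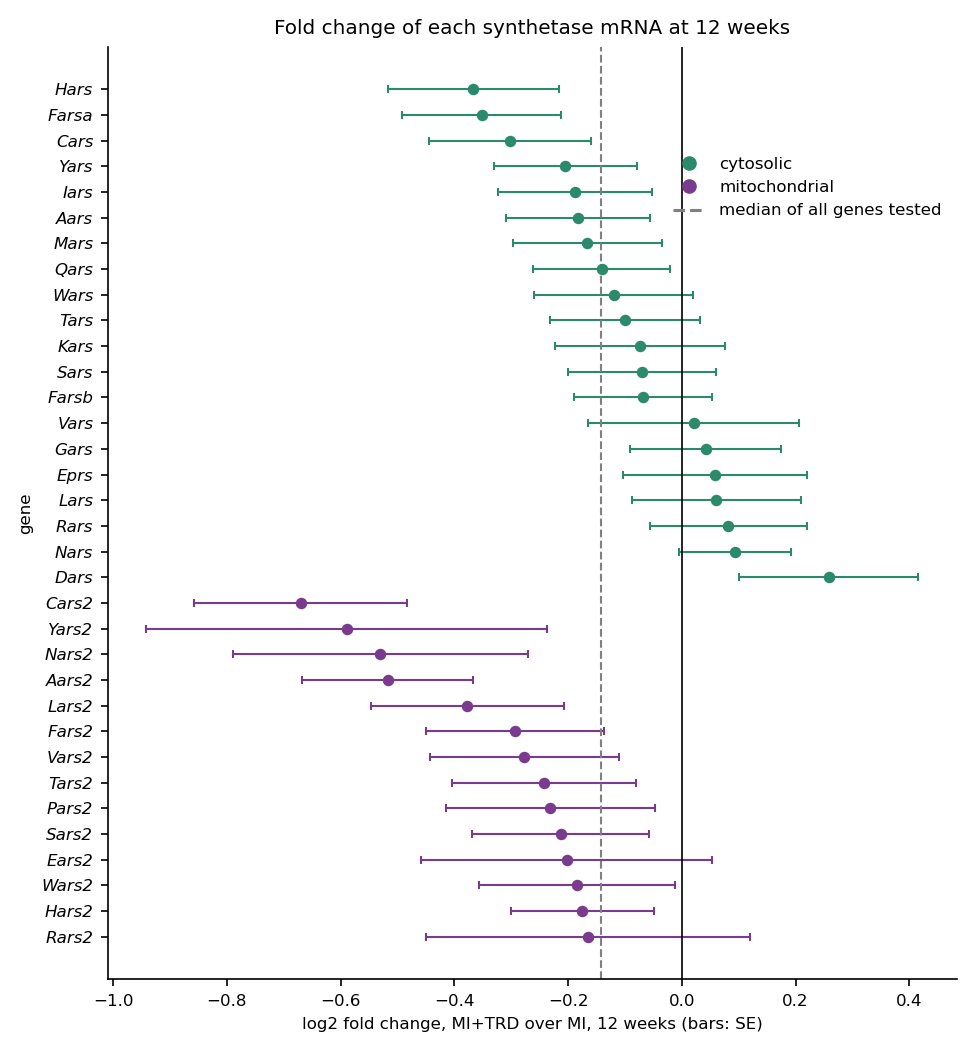
Log2 fold change of each gene, MI+TRD over MI at 12 weeks, with its standard error, for 20 cytosolic and 14 mitochondrial genes (n = 6 libraries each). The mitochondrial genes all lie left of the dashed line, the median of all genes at -0.14; the cytosolic genes lie on either side of it.

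Cars2 (chr16:83288664-83325702 in the deposited table, build rn6, plus strand) encodes the mitochondrial cysteinyl-tRNA synthetase. Its normalized counts were 4.75, 6.06, 6.41, 5.06, 3.02 and 6.92 in MI+TRD libraries 1 to 6, against 8.22, 8.93, 7.56, 10.3, 7.10 and 8.72 in MI libraries 1 to 6. Every MI+TRD library lay below every MI library, which was the case for 1.59% of all genes and for no other synthetase. The means were 5.37 ± 1.41 in MI+TRD and 8.46 ± 1.12 in MI (SD, n = 6 each), and the log2 fold change was -0.67 (SE 0.19; limma adjusted p = 0.132). Its unadjusted p stayed under 0.05 in each of 15 other settings, with fold changes of -0.75 to -0.37 (the value of -0.37 without MI+TRD replicates 1, 4 and 5), and with each of the 12 libraries left out in turn.

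Aars2 (chr9:17869705-17880764, minus strand), the mitochondrial alanyl-tRNA synthetase, had 9.29, 7.88, 8.17, 9.86, 6.63 and 6.41 in MI+TRD libraries, against 11.2, 10.9, 9.47, 14.9, 10.8 and 12.2 in MI libraries. The groups overlapped only through MI replicate 3, which lay below MI+TRD replicate 4. The means were 8.04 ± 1.39 in MI+TRD and 11.6 ± 1.83 in MI (SD, n = 6 each), a log2 fold change of -0.52 (SE 0.15; limma adjusted p = 0.132). With equal column totals the fold change was -0.29 and its unadjusted p was no longer under 0.05.

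Lars2 (chr8:132441314-132536334, plus strand), which charges mitochondrial leucine tRNAs, had 7.84, 7.46, 6.46, 7.07, 6.16 and 7.04 in MI+TRD libraries, against 7.03, 7.33, 12.0, 13.3, 8.74 and 7.99 in MI libraries. The MI+TRD libraries were close together, and the MI libraries ran from their level up to 13.3 in replicate 4. The means were 7.004 ± 0.621 in MI+TRD and 9.41 ± 2.64 in MI (SD, n = 6 each), a log2 fold change of -0.38 (SE 0.17; limma adjusted p = 0.213). Its unadjusted p was no longer under 0.05 on leaving out any of 7 libraries (MI replicates 3, 4 or 5, or MI+TRD replicates 3, 4, 5 or 6); the fold change was -0.27 without MI replicate 4 and -0.30 without MI replicate 3. The same held after each rescaling.

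Nars2, the mitochondrial asparaginyl enzyme, had 3.45, 2.84, 3.16, 2.85, 1.10 and 2.78 in MI+TRD libraries and 2.31, 3.83, 4.12, 5.30, 3.32 and 4.61 in MI libraries (log2 fold change -0.53, SE 0.26; limma adjusted p = 0.247). MI+TRD replicate 5 was by far the lowest, and MI replicates 1 and 5 lay within the MI+TRD range. Without MI+TRD replicate 5 the fold change of Nars2 was -0.32, with equal column totals it was -0.31, and without MI replicate 1 it was -0.66, with an unadjusted p under 0.05. Fars2, the mitochondrial phenylalanyl enzyme, had 14.4, 15.1, 16.4, 14.1, 11.1 and 15.5 in MI+TRD libraries and 17.7, 16.1, 15.3, 26.5, 14.2 and 18.3 in MI libraries (log2 fold change -0.29, SE 0.16; limma adjusted p = 0.288). The groups overlapped, and MI replicate 4 stood above all other libraries. Without it the fold change of Fars2 was -0.18, with equal column totals it was -0.06, and without MI replicate 5 it was -0.36, with an unadjusted p under 0.05.

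The other 9 mitochondrial genes had fold changes of -0.59 (Yars2, SE 0.35) to -0.17 (Rars2, SE 0.28), and all overlapped between groups. Yars2, the tyrosyl enzyme, spanned 0.706 to 4.57 in MI+TRD and 3.10 to 6.70 in MI, with its lowest value in MI+TRD replicate 5. Without that library the fold change of Yars2 was -0.23 and that of Rars2, the arginyl enzyme, turned positive at 0.10, so 13 of the 14 mitochondrial genes were then below 0. Without MI replicate 4 the fold changes of Vars2 (-0.15), Tars2 (-0.11), Sars2 (-0.11) and Wars2 (-0.09) were each smaller by more than 1.5 times than with it. Hars2, the histidyl enzyme, averaged 21.1 ± 2.29 in MI+TRD and 23.9 ± 3.25 in MI (SD, n = 6 each; log2 fold change -0.17, SE 0.13). Ears2, the glutamyl enzyme, had 18 to 47 reads per library, so its fold change of -0.20 (SE 0.26) rests on little data; it was -0.33 without MI+TRD replicate 1, -0.07 without MI+TRD replicate 6 and -0.12 without MI replicate 4.

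**Figure D3:**
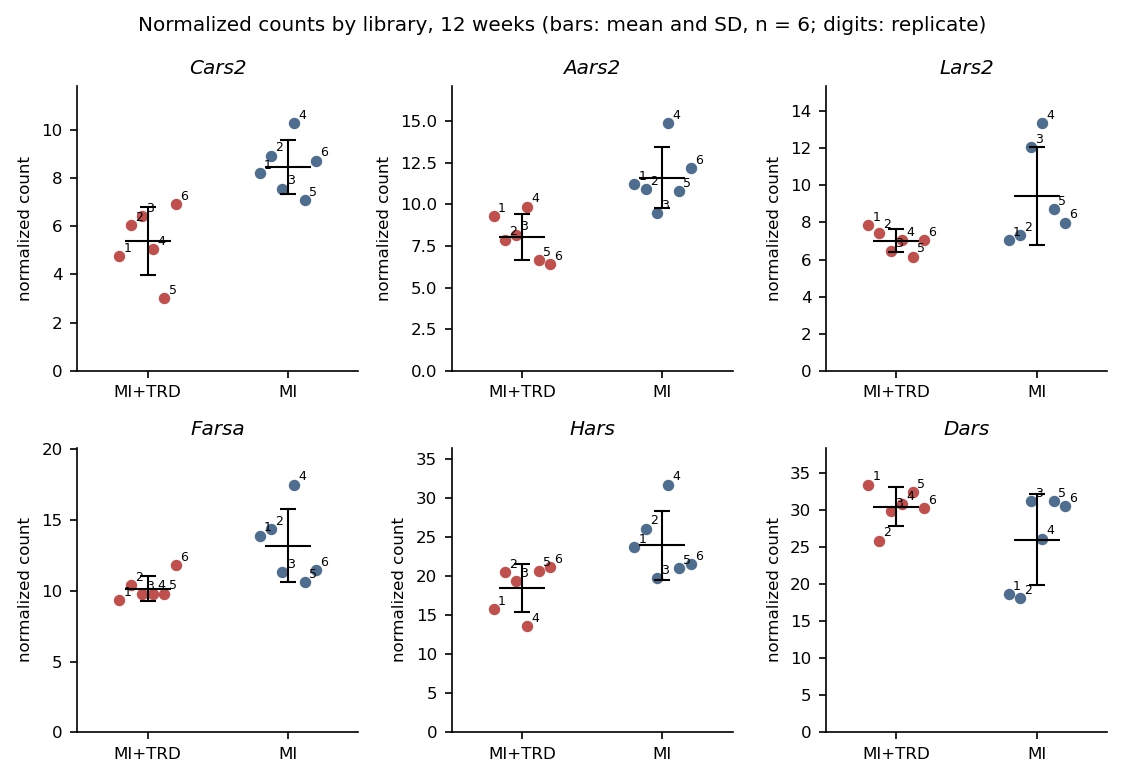
Normalized counts of 6 synthetase genes in each 12-week library, MI+TRD left and MI right, with mean and SD (n = 6 each) and the replicate number beside each point; axes start at 0. Cars2 libraries of the groups do not overlap (3.02 to 6.92 in MI+TRD, 7.10 to 10.3 in MI); Dars is the gene with the highest fold change among the 34.

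Among the cytosolic genes, Farsa (chr19:25969255-25978778, plus strand), the catalytic subunit of phenylalanyl-tRNA synthetase, had 9.34, 10.4, 9.80, 9.81, 9.81 and 11.8 in MI+TRD libraries, against 13.9, 14.4, 11.3, 17.5, 10.6 and 11.5 in MI libraries. The MI+TRD libraries were tightly grouped, and 3 MI libraries reached into their range. The means were 10.2 ± 0.878 in MI+TRD and 13.2 ± 2.59 in MI (SD, n = 6 each), a log2 fold change of -0.35 (SE 0.14; limma adjusted p = 0.168). Its partner Farsb, the other subunit of the enzyme, had a fold change of -0.07 (SE 0.12). The unadjusted p of Farsa was no longer under 0.05 without MI replicate 4 (fold change -0.27) or with median of ratios scaling (-0.19).

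Hars (chr18:29611545-29629088, minus strand), the cytosolic histidyl enzyme, had 15.8, 20.5, 19.4, 13.7, 20.7 and 21.1 in MI+TRD libraries, against 23.7, 26.1, 19.8, 31.7, 21.0 and 21.6 in MI libraries. The groups overlapped: 3 MI+TRD libraries lay above MI replicate 3. The means were 18.5 ± 3.07 in MI+TRD and 23.98 ± 4.402 in MI (SD, n = 6 each), a log2 fold change of -0.37 (SE 0.15; limma adjusted p = 0.177). Its unadjusted p was no longer under 0.05 with median of ratios scaling (fold change -0.21), nor without any of 4 libraries, MI replicates 2 (fold change -0.34) and 4 (-0.28) and MI+TRD replicates 1 (-0.33) and 4 (-0.28), each left out alone.

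Cars, the cytosolic cysteinyl enzyme, had 9.64, 12.2, 11.6, 12.2, 8.71 and 10.6 in MI+TRD libraries and 14.6, 16.5, 11.8, 15.1, 11.7 and 10.9 in MI libraries (log2 fold change -0.30, SE 0.14; limma adjusted p = 0.231). Yars, the cytosolic tyrosyl enzyme, had 13.5, 16.1, 13.5, 14.8, 13.1 and 14.7 in MI+TRD libraries and 18.7, 18.4, 15.4, 18.8, 14.9 and 13.2 in MI libraries (log2 fold change -0.20, SE 0.13; limma adjusted p = 0.360). Both genes overlapped between groups, and the fold change of Yars was 0.03 with equal column totals.

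Dars (chr13:45074072-45127816, minus strand), the cytosolic aspartyl enzyme and a member of the multisynthetase complex, had the most positive fold change of the 34. It had 33.4, 25.9, 29.9, 30.7, 32.4 and 30.3 in MI+TRD libraries, against 18.7, 18.1, 31.2, 26.2, 31.2 and 30.6 in MI libraries. MI replicates 1 and 2 stood below all other libraries, and the other four MI libraries lay at the MI+TRD level. The log2 fold change was 0.26 (SE 0.16; limma adjusted p = 0.356). With median of ratios scaling it was 0.42 and with equal column totals 0.49, each with an unadjusted p under 0.05. It was 0.17 without MI replicate 1, 0.16 without MI replicate 2 and 0.13 with array weights.

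The remaining 15 cytosolic genes had fold changes between -0.19 (Iars, SE 0.14) and 0.09 (Nars, SE 0.10). Nars, the cytosolic asparaginyl enzyme, had 30.6, 32.1, 31.4, 31.0, 33.6 and 32.6 in MI+TRD libraries and 29.5, 33.8, 28.4, 29.9, 29.9 and 27.8 in MI libraries. Except for MI replicate 2, every MI library was below every MI+TRD library, and with median of ratios scaling the fold change was 0.26, with an unadjusted p under 0.05. Lars, the cytosolic leucyl enzyme and a known leucine sensor for the mTORC1 kinase, had 27.2, 25.7, 23.7, 32.5, 43.0 and 25.9 in MI+TRD libraries and 27.7, 32.4, 24.8, 31.3, 24.9 and 26.7 in MI libraries. Its fold change of 0.06 (SE 0.15) rests on MI+TRD replicate 5, without which it was -0.05. Eprs, which joins glutamyl and prolyl activities in a fusion protein, had a fold change of 0.06 (SE 0.16), and Vars, the valyl enzyme, of 0.02 (SE 0.19). The sign of both turned with the libraries used: without MI+TRD replicate 5 the fold change was -0.02 for Eprs and -0.07 for Vars.

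The 7 cytosolic genes with the promoter motif had a median log2 fold change of -0.18 at 12 weeks (from -0.30 in Cars to 0.09 in Nars, 6 of 7 below 0). The 10 cytosolic genes with a window and no match had a median of -0.07 (from -0.37 in Hars to 0.06 in Lars, 7 of 10 below 0). The ranges overlapped and no test was made between them. Of all genes tested 67.8% were below 0, and their median was -0.14, between the medians of the 2 sets. In the authors' deposited table for 6 weeks the order was the other way, with median log2 ratios of 0.0594 with the motif and 0.0001 without.

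Each mitochondrial gene was then set against the cytosolic gene for the same amino acid within a library, a ratio that the scaling of the library does not change apart from the pseudocount. Over 14 such pairs, with Eprs used for both glutamate and proline, the log2 ratio was lower in MI+TRD in 12 and higher in 2, with a median difference of -0.28. In each of the 14 pairs the groups overlapped. The median difference was -0.18 without MI+TRD replicate 5, -0.13 without MI+TRD replicates 1, 4 and 5, and -0.10 without MI replicate 4 and MI+TRD replicate 5. Without MI+TRD replicate 5 the differences of Rars2 to Rars (0.06) and Wars2 to Wars (0.02) were positive too. The summed normalized counts of the 14 mitochondrial genes were 20.7%, 22.6%, 22.9%, 19.1%, 15.6% and 21.6% of those of the 20 cytosolic genes in MI+TRD libraries 1 to 6 (20.4% ± 2.73), against 21.7%, 21.4%, 24.6%, 27.8%, 23.9% and 25.2% in MI libraries 1 to 6 (24.1% ± 2.38; SD, n = 6 each). These percentages depend on transcript lengths and serve only to compare libraries. The lowest was MI+TRD replicate 5 and the highest MI replicate 4, and the groups overlapped between 21.4% and 22.9%.

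The largest difference was that of Nars2 to Nars, -0.62 (SE 0.29), or -0.39 without MI+TRD replicate 5. Its log2 ratio was -3.07, -3.40, -3.22, -3.34, -4.67 and -3.44 in MI+TRD libraries and -3.55, -3.07, -2.72, -2.45, -3.09 and -2.53 in MI libraries. MI+TRD replicate 5 was the lowest, and MI replicate 1 lay below every MI+TRD library but that one. The log2 ratio of Lars2 to Lars was -1.76, -1.75, -1.84, -2.17, -2.76 and -1.84 in MI+TRD libraries and -1.94, -2.11, -1.03, -1.22, -1.49 and -1.71 in MI libraries, a difference of -0.44 (SE 0.23), or -0.29 without MI+TRD replicate 5. Here MI replicates 1 and 2 lay within the MI+TRD range.

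The ratio of Cars2 to Cars differed by -0.37 (SE 0.15) and that of Aars2 to Aars by -0.33 (SE 0.10), where all 6 MI+TRD libraries lay below the MI mean. Positive differences were those of Hars2 to Hars (0.19, SE 0.17; 0.11 without MI+TRD replicate 1) and Fars2 to Farsa (0.06, SE 0.11; 0.12 without MI+TRD replicate 5), the pairs in which the cytosolic gene was itself lower at unadjusted p.

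**Figure D4:**
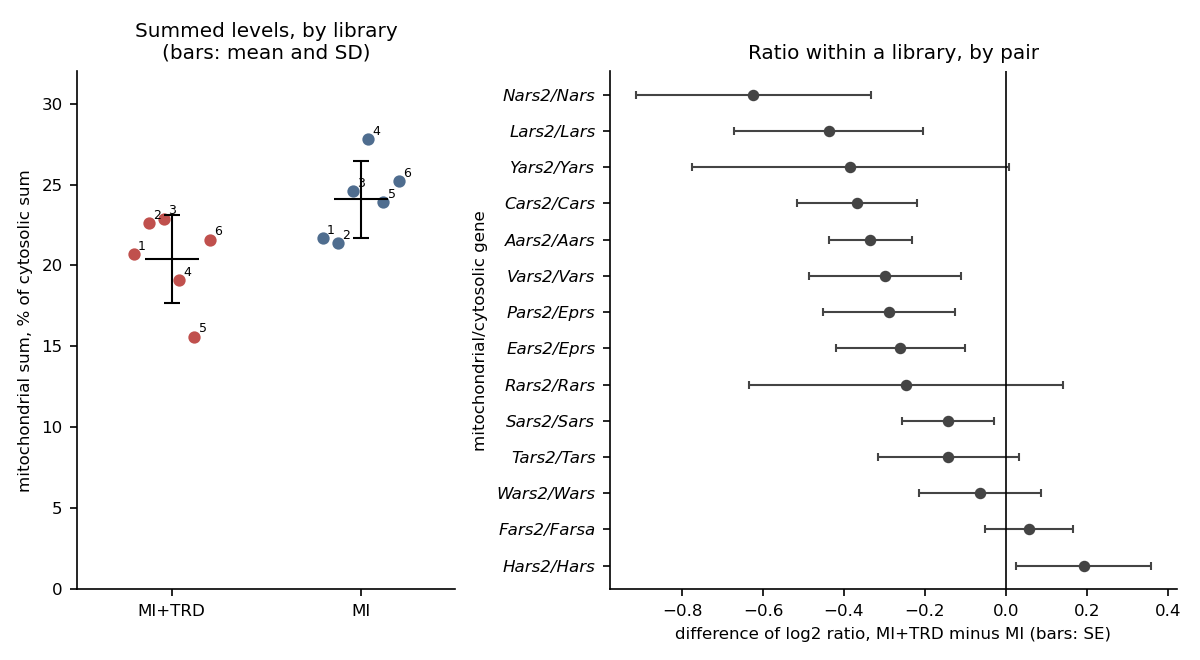
Left, the summed normalized counts of 14 mitochondrial synthetase genes as a percentage of those of 20 cytosolic genes in each 12-week library (mean and SD, n = 6 each), MI+TRD left and MI right. Right, for 14 pairs of mitochondrial and cytosolic genes of the same amino acid, the difference of the mean log2 ratio, MI+TRD minus MI, with its standard error; 12 pairs lie below 0 and 2 above.

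Hars and Hars2 are neighbours that are read away from each other from starts 144 bases apart. The sequence between their RefSeq starts is shown because a cytosolic and a mitochondrial synthetase share it as promoter region. It is given on the plus strand, in the direction of Hars2, from chr18:28672712-28672856 of GRCr8, with the starts at its ends.
Hars to Hars2: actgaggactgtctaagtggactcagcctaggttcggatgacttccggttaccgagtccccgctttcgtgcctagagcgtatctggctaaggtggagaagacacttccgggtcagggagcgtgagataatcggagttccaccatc
The motif TGATGNAA was found in neither window. Hars had a log2 fold change of -0.37 (SE 0.15) and Hars2 of -0.17 (SE 0.13). Their difference, 0.19 (SE 0.17), is that of the pair ratio above.

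Respiratory chain genes, also nuclear genes of mitochondrial proteins, were read beside the mitochondrial synthetases. Of 19 respiratory chain genes 18 were lower at unadjusted p (limma), beside 19.1% of all genes, and 13 with edgeR, beside 6.99%, with a median of -0.41 relative to all genes, and the corresponding median was -0.12 for the mitochondrial synthetases. Scores per library, the mean log2 value relative to the MI mean and to the library's median gene, were -0.63, -0.05, 0.01, -0.75, -0.88 and -0.43 for the respiratory chain in MI+TRD libraries 1 to 6, against -0.28 to 0.14 in MI libraries. For the mitochondrial synthetases they were -0.01, -0.15, -0.03, -0.11, -0.59 and -0.25 in MI+TRD libraries and -0.19, -0.25, 0.09, 0.24, -0.05 and 0.13 in MI libraries. MI+TRD replicate 5 was lowest in both. MI+TRD replicates 1, 4 and 6, below the MI range in the respiratory chain, were within the MI range for the synthetases. For the synthetases MI+TRD replicate 6 (-0.2506) was close to the lowest MI library (-0.2533 in MI replicate 2). MI+TRD replicates 2 and 3 were within the MI range in both. Only MI+TRD replicate 5 lay below the MI range for the synthetases. Without MI+TRD replicates 1, 4 and 5 the mitochondrial median fold change was -0.33, with 12 of 14 genes below the all-gene median, and the cytosolic median was -0.22, with 14 of 20 below it.

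Of 9 measured genes of mitochondrial translation factors (10 listed) 9 had a negative fold change, beside 67.8% of all genes, and 4 were lower and 0 higher at unadjusted p (limma), beside 19.1% and 2.79%. With edgeR 0 of the 9 were lower at unadjusted p, beside 6.99%. Their median was -0.23 relative to all genes. Tufm, the elongation factor that brings charged tRNA to the mitochondrial ribosome, averaged 96.7 ± 29.4 in MI+TRD and 143 ± 26.8 in MI (SD, n = 6 each; log2 fold change -0.61, SE 0.20). Mtfmt, which formylates the initiator tRNA of mitochondria, spanned 3.11 to 5.68 in MI+TRD and 5.85 to 6.97 in MI without overlap (log2 fold change -0.47, SE 0.16). Gfm1, a mitochondrial elongation factor, had a fold change of -0.37 (SE 0.13).

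Of 20 tRNA maturation genes 7 were lower and 0 higher at unadjusted p (limma), beside 19.1% and 2.79% of all genes, and 2 were lower with edgeR, beside 6.99%. Their median was -0.14 relative to all genes. Gtpbp3, which modifies the wobble base of mitochondrial tRNAs, averaged 3.20 ± 0.652 in MI+TRD and 5.46 ± 1.44 in MI (SD, n = 6 each; log2 fold change -0.72, SE 0.20). Pus1, a pseudouridine synthase of tRNAs, had a fold change of -0.53 (SE 0.18), and Hsd17b10, a subunit of mitochondrial RNase P, of -0.44 (SE 0.16). In the complex that turns glutamyl into glutaminyl tRNA in mitochondria, Qrsl1 had a fold change of -0.21 (SE 0.14) and Gatc of -0.11 (SE 0.14), and 0 of the 2 measured passed at unadjusted p.

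On the cytosolic side, 0 of the 3 scaffold genes of the multisynthetase complex passed at unadjusted p: the fold change of Aimp1 was -0.27 (SE 0.14), of Aimp2 -0.20 (SE 0.16) and of Eef1e1 -0.41 (SE 0.25). Of 7 cytosolic elongation factor genes 1 was lower, Eif5a, at 120 ± 29.8 in MI+TRD and 167 ± 31.9 in MI (SD, n = 6 each; log2 fold change -0.49, SE 0.18). Eef1b2, a nucleotide exchange factor, had a fold change of -0.46 (SE 0.22), and Eef1d of -0.26 (SE 0.14). The 1 of 7 lower stands beside 19.1% of all genes, and with edgeR 0 of the 7 were lower, beside 6.99%. The median of these 7 was -0.10 relative to all genes.

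The next genes belong to the pathway that raises cytosolic synthetase transcription under amino acid shortage; 19.1% of all genes were lower and 2.79% higher at unadjusted p (limma). Of 8 genes around the eIF2 alpha kinases 1 was lower, Ppp1r15a, a stress-induced phosphatase subunit, at 39.8 ± 18.2 in MI+TRD and 58.6 ± 17.0 in MI (SD, n = 6 each; log2 fold change -0.64, SE 0.28). Its constitutive relative Ppp1r15b had a fold change of 0.32 (SE 0.16), and Eif2ak4, the kinase that senses uncharged tRNA, of -0.23 (SE 0.19). None of the 8 was higher, and their median was 0.18 relative to all genes; with edgeR 0 were lower, beside 6.99%, and 1 higher, beside 7.98%. Of Atf4 and 23 other measured genes of its pathway 2 were lower and 0 higher, with a median of -0.03 relative to all genes, and with edgeR 1 was lower and 1 higher. Shmt2, a serine hydroxymethyltransferase of mitochondria, averaged 15.1 ± 4.65 in MI+TRD and 24.2 ± 2.94 in MI (log2 fold change -0.73, SE 0.19), and Ddit3, a stress transcription factor, 15.7 ± 7.76 in MI+TRD and 25.03 ± 4.47 in MI (log2 fold change -0.80, SE 0.28; SD, n = 6 each). Ddit3 and Mars overlap by 63 bases on opposite strands. Vldlr, a lipoprotein receptor, had a fold change of 0.39 (SE 0.20). Atf4 itself had a fold change of -0.42 (SE 0.23), and Asns, asparagine synthetase, of -0.02 (SE 0.31).

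In the 6-week comparison the share of synthetases that passed was near that of all genes, and it says nothing particular about them. In the authors' deposited table for 6 weeks, at a deposited p under 0.05, 1 of the 34 genes was lower, beside 4.09% of all 11283 genes in that table, and 0 were higher, beside 4.42%; none passed the authors' false discovery rate at 0.05, as did 0% of all genes. The gene was Vars2, the mitochondrial valyl enzyme, with authors' means of 10.84 in MI+TRD and 14.58 in MI (ratio 0.743, p = 0.0294, false discovery rate 0.505 in the authors' deposited table). For the next mitochondrial genes by p, the authors' deposited table gave ratios above 1, 1.46 for Ears2 (p = 0.135) and 1.25 for Aars2 (p = 0.166). Among cytosolic genes the smallest p in the authors' deposited table were 0.223 for Mars (ratio 1.12), 0.287 for Lars (ratio 0.897) and 0.414 for Yars (ratio 1.07). Of the cell markers in the same authors' deposited table, 7 of 8 fibroblast markers and 6 of 8 macrophage and leukocyte markers were higher at p under 0.05, and 3 of 6 endothelial markers lower; their part in the synthetase values was not tested.

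At 12 weeks the authors' deposited table, whose scaling and model are not stated, had 5 of the 34 genes lower at p under 0.05, beside 22% of all genes. These were Cars2, Farsa, Hars, Cars and Aars2, and 0 were higher, beside 2.12%. Cars2 passed the false discovery rate of the authors' deposited table (ratio 0.618, p = 0.000928, false discovery rate 0.0473), as did 2.9% of all genes in that direction and 0.0443% in the other. Farsa followed there with a ratio of 0.753 (p = 0.00581, false discovery rate 0.0746), and Vars2, the gene lower at 6 weeks, had a ratio of 0.791 (p = 0.0859) in the authors' deposited table for 12 weeks.

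Set side by side, the ratio of MI+TRD to MI in the authors' deposited tables was below 1 in 8 of 14 mitochondrial genes at 6 weeks and in 14 of 14 at 12 weeks, with median log2 ratios of -0.06 and -0.33. For cytosolic genes it was below 1 in 7 of 20 and 13 of 20, with medians of 0.03 and -0.12. Over all genes of the authors' deposited tables it was below 1 in 6432 of 11283 at 6 weeks and 7590 of 11283 at 12 weeks. The medians over all genes were -0.04 and -0.16. The ratio was lower at 12 than at 6 weeks in 13 of 14 mitochondrial genes, in 14 of 20 cytosolic genes and in 7256 of all 11283 genes, by the authors' deposited tables. Aars2 and Nars2 turned from above to below 1, with ratios in the authors' deposited tables of 1.25 and 1.24 at 6 weeks and 0.683 and 0.673 at 12 weeks. Cars2 had a ratio of 0.935 at 6 weeks and 0.618 at 12 weeks in the authors' deposited tables. The difference between the times was not tested, as the 6-week libraries entered only as group means.

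**Figure D5:**
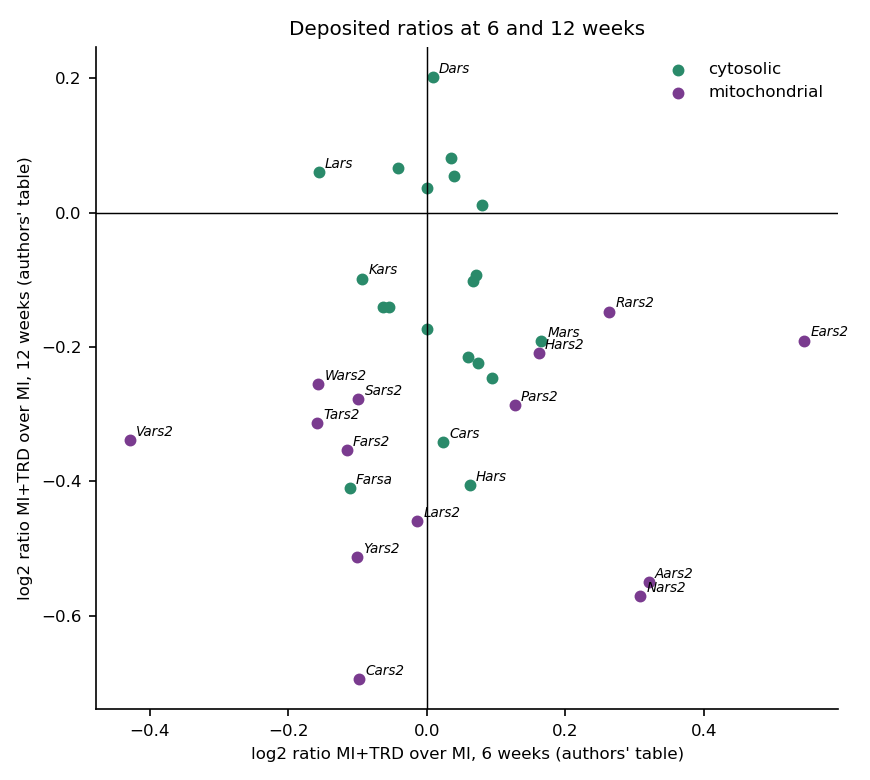
Log2 ratio of MI+TRD to MI in the authors' deposited tables, at 6 weeks (horizontal axis) and 12 weeks (vertical axis), for 20 cytosolic and 14 mitochondrial synthetase genes; selected genes are named. All 14 mitochondrial genes lie below 0 at 12 weeks, and 8 of them lie left of 0 at 6 weeks.

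The levels behind these ratios are known as group means. In the authors' deposited tables, the mean at 12 weeks over that at 6 weeks had a median over the mitochondrial genes of 0.956 in MI+TRD (above 1 in 3 of 14) and of 1.27 in MI (above 1 in 13 of 14). The same quantity of the authors' deposited tables had a median over cytosolic genes of 0.980 in MI+TRD and 1.13 in MI, and over all genes of 0.928 in MI+TRD and 1.03 in MI. Of all 11283 genes it was above 1 in 4465 in MI+TRD and in 6302 in MI. For cell markers in the authors' deposited tables, the median over genes of the 12-week mean over the 6-week mean was 0.405 in MI+TRD and 0.628 in MI for 8 fibroblast genes, 0.599 in MI+TRD and 0.798 in MI for 8 macrophage and leukocyte genes, and 1.80 in MI+TRD and 35.03 in MI for 4 atrial genes. It was 1.051 in MI+TRD and 1.218 in MI for 7 cardiomyocyte genes, and 0.8755 and 0.7977 for 6 endothelial genes. For 5 mesothelial genes it was 0.4914 in MI+TRD and 0.04273 in MI, and for 4 erythroid genes 0.9284 and 0.3087. The part of the cell markers in the levels of the synthetases was not tested. Values near the mitochondrial synthetases were those of 19 respiratory chain genes (0.9267 in MI+TRD, 1.203 in MI) and 9 mitochondrial translation factor genes (0.9481 and 1.255). Whether the tables share a normalization is not stated, so these levels across tables are a description only.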

How the data were processed

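PolyA RNA libraries were read on Illumina instruments (per the labels' protocols), and Partek and rn6 are named, without versions, per the submitters' processing notes. For aligner, counting, strand use, annotation and scaling the entry is: not given in the sources used here. The deposited values for 12 weeks are a signal, namely normalized counts by gene and library, per the file headers; between 97.2% and 98.6% of low values per library were whole multiples (within 0.1) of the library's smallest step, after which reads were recovered as the multiple minus 1. The authors' deposited comparison tables give a p-value, a step-up false discovery rate, the ratio of MI+TRD to MI, a signed fold score and group means, per the file headers.

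Genes with a mean of at least 0.458 (10 steps) were kept, 10629 of 10723. limma 3.58.1 (trended prior, two-sided, no covariates; R 4.3.3) was run on log2(value + 0.229), 5 steps, a scale that understates changes of low genes, adjusted by Benjamini-Hochberg, threshold 0.05. edgeR 4.0.16 (quasi-likelihood) and DESeq2 1.42.0 on recovered reads, other scalings, pseudocounts and filters, array weights, a replicate block and leaving out libraries were alternatives. The labels name separate samples but no animals, so a p-value covers only the spread among samples, which may be technical. All pairs of libraries within a group differed by more than counting noise (chi-square at least 14.7 per degree of freedom); Pearson's r between libraries was 0.885 to 0.983. On reads simulated for the 12-week comparison (10629 genes), limma recovered 10%, 56%, 82% and 90% of genes changed 1.5-, 2-, 3- and 4-fold.

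The genes and lists were chosen with earlier results of these data known. Described library by library were the 5 genes per class with the smallest limma p and the members of the 2 pairs with the largest change of ratio; from other lists, up to 3 genes with the smallest p, and at 6 weeks 3 genes per class by deposited p. Atf4 and Asns were added, as were Farsb, Yars2, Hars2, Ears2, Eprs and Vars, chosen after their values were seen. Respiratory chain genes and cell markers are given by counts. The deposited spans of 11 of the 34 genes overlap another entry. In all but Mars and Ddit3 (63 bases) the other entry covers the whole span of the synthetase. Some of these entries are very long. That of Sbk1 covers Sars2, Nars2 and Ears2, which start at 86923769, 161922193 and 191997512 on chromosome 1. Such a span need not be the extent of the other gene. Reads in overlaps cannot be separated without the counting rules. Counts of 0 allow up to 3 reads, for counting error only.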

Additional observations from a re-analysis of the deposited data

Results flagged for a closer look

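In 11 of 68 tests (34 genes, 6 libraries of each group at 12 weeks) the highest or lowest library stood apart from the rest of its group. The gap was beyond Dixon's 95% critical value, and chance flags about 1 in 20 such tests. All genes share the same 12 libraries, so the tests are not independent and the 11 flags are not separate events. MI replicate 4 was the high library in 5 of them: Qars at 59.45 (others 40.49 to 46.43), Sars at 47.67 (others 31.20 to 36.19), Wars at 32.21 (others 22.34 to 24.79), Fars2 at 26.54 (others 14.15 to 18.33) and Vars2 at 18.70 (others 9.45 to 11.56). This library had the highest column total and the highest value in 21 of 34 genes, and its median gene lay 0.2 (log2) above the MI mean. MI+TRD replicate 5 was low in Nars2 at 1.098 (others 2.785 to 3.447) and in Rars2 at 1.059 (others 2.997 to 3.939), and high in Sars at 44.21 (others 30.70 to 34.55). Its erythroid marker sum of 690.6 was the highest of the 12 libraries and its respiratory chain score the lowest; their part in these values was not tested. MI+TRD replicate 4 was high in Vars2 at 12.82 (others 8.743 to 9.747), MI+TRD replicate 1 in Wars2 at 4.246 (others 3.622 to 3.805), and MI replicate 2 in Nars at 33.77 (others 27.77 to 29.95).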

How the results depend on the processing

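In every setting run 0 synthetases passed the adjusted threshold (limma, edgeR and DESeq2), and 0 mitochondrial genes were higher at unadjusted p. Of all genes tested, DESeq2 called 18 at the adjusted threshold and edgeR 0. The count of cytosolic genes lower at unadjusted p, 2 as reported, was 0 with median of ratios, TMM, equal column totals, quantile normalization, array weights, edgeR and DESeq2, 1 without MI+TRD replicates 1, 4 and 5, 1 on dropping MI replicate 4 together with MI+TRD replicate 5 (chosen after seeing the data), and 0 to 3 with each library left out in turn (0 without MI replicate 4, 1 without MI+TRD replicate 1 or MI replicate 2). The count of cytosolic genes higher, 0 as reported, was 2 with median of ratios, TMM, quantile normalization and DESeq2, 5 with equal column totals and 1 with edgeR, and 0 with each library left out. The count of mitochondrial genes lower, 3 as reported, was 1 to 5 over other settings. It was 1 with equal column totals, 2 with median of ratios, 2 with edgeR, and 5 with a trend over gene span removed (chosen after seeing the data). With each library left out it was 2 to 4. These scalings move the median of all genes from -0.14 to between -0.01 and 0.08, and the counts at unadjusted p over all 10629 genes with it. As reported, 2034 of these were lower and 297 higher. With equal column totals 412 were lower and 1206 higher, with median of ratios 877 and 796. TMM gave 866 and 792, quantile normalization 1044 and 695, edgeR 743 and 848, DESeq2 764 and 941. Array weights gave 1458 and 148, the span trend removal 1756 and 261. Without MI+TRD replicates 1, 4 and 5 there were 1031 and 282. On dropping MI replicate 4 together with MI+TRD replicate 5 there were 1120 and 125. With each library left out, 1428 (no MI replicate 4) to 2331 (no MI+TRD replicate 6) of all genes were lower. Then 190 (no MI replicate 4) to 347 (no MI replicate 5) were higher. Without MI+TRD replicate 1 there were 1609 lower, and without MI replicate 2 there were 1582 lower. The cytosolic median relative to all genes, 0.06, was -0.065 without MI+TRD replicates 1, 4 and 5 and 0.01 to 0.09 with each library left out; the mitochondrial one was -0.18 to -0.02 over other settings and -0.17 to -0.05 with each library left out. The median pair difference was -0.30 to -0.10 over other settings and -0.38 to -0.18 with each library left out. Yars turned to 0.029 with equal column totals, and Lars to -0.065 with the span trend removed, -0.15 on dropping MI+TRD replicates 1, 4 and 5 and -0.018 on dropping MI replicate 4 together with MI+TRD replicate 5; with each library left out Lars lay between -0.052 (no MI+TRD replicate 5) and 0.12. With the replicate number as a block 1 cytosolic gene was lower, beside 1833 of all 10629 genes. Same-numbered libraries had correlations of -0.33 to 0.33, 4 of 6 over 0.1, and 3 libraries matched their own number best. These values are mixed and do not decide whether the numbers pair the samples. The count at 6 weeks in the authors' deposited table, 1, was 0 at p under 0.01; the 12-week table gave 5. Apart from what the settings' construction shows, the cause was not tested. Depth limits Ears2, with 18 to 47 reads per library.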
